A study of Rattus norvegicus with 12 samples.

Results

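The comparison described here sets the 3 arrays of hippocampal slice cultures given the antibody 7B12 against the 3 arrays of cultures given a control IgG, that is 6 of the 12 arrays of the study. Arrays were chosen by their titles alone, and arrays with the same replicate number were paired. The cultures were slices of 350 µm from hippocampi of Wistar rats at postnatal day 7, kept 4 to an insert at 33 °C for 26 days, and each array held the RNA of 24 pooled cultures. From day 21 the 7B12 cultures received a mouse monoclonal antibody raised to residues 763 to 820 of rat Nogo-A at 3 µg/ml for 5 days, with the medium renewed every 2 days. The IgG cultures received a monoclonal antibody to wheat auxin, a plant molecule, at the same dose and times. Per the labels this control was highly purified IgG, whereas for 7B12 they name the producer. The study's other groups were untreated cultures (NT) and cultures given 11C7, a mouse antibody to residues 623 to 640 of Nogo-A at the same dose and times, with 3 arrays each. All cultures shared the strain, the age, the total time in culture and a lower limit of 9 on the RNA integrity index.

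Nogo-A is the longest product of the reticulon gene Rtn4. It lies in the membrane of oligodendrocytes and of some neurons, and its central region and a short extracellular loop limit neurite growth through receptors that act on the small GTPase RhoA. Slice cultures keep neurons, glia and the resident macrophages of the brain, the microglia, but have no blood flow, so that recruited blood leukocytes cannot enter. An IgG antibody can act through the site it binds and also through its constant part, which microglia bind with Fc receptors, and the comparison with another IgG addresses what 7B12 does beyond the addition of an antibody.

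Each value below is the log2 of a deposited ratio less the median of its array, and a value for a gene is the mean of its probe sets that carry that symbol alone. Because the ratios are relative to each probe set's own reference, levels of different genes cannot be compared, and the labelled tissue could not be checked by the level of its markers. Differences are 7B12 minus IgG, as the mean of the 3 same-numbered pairs. The value after ± is the standard error (SE) that limma gives. Its spread is drawn toward that of all genes or probe sets, so it is not the SE of the 3 pairs alone. Values of single arrays are listed in the order of replicates 1, 2 and 3. Adjusted p-values of genes are from limma over all 14217 genes with a symbol unless a probe set is named. The 11C7 array of replicate 1 stood with the 7B12 arrays for many of the genes below, and 11C7 arrays enter only where they are named. RNA of whole slices was measured, so fewer cells of a type and less RNA per cell cannot be told apart.

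In 7B12 cultures, lists of innate immune genes (chemokines, acute-phase proteins, interferon-stimulated genes, Toll-like receptors and others) had a mean above the IgG cultures in all 3 pairs. Lists of genes of neurons, synapses, growth cones and of Nogo-A with its receptors had medians near the IgG level, with single members in either direction. Among the largest differences were those of the acute-phase gene Saa3 (132-fold), the protease inhibitor gene Slpi (22.5-fold), the integrin gene Itgal (13.7-fold), the chemokine gene Cxcl13 (13.3-fold) and the iron-binding lipocalin gene Lcn2 (11.7-fold). Among the lower genes were the leukotriene enzyme gene Ltc4s, the growth factor gene Igf1 and the neuropilin gene Nrp1. None of these passed the adjusted threshold of 0.05 when the 6 arrays alone were fitted.

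The test of the 6 arrays, with the replicate number as a block, left 2 residual degrees of freedom and called 0 of 31042 probe sets (0%) in limma, with a smallest adjusted p of 0.463. At an unadjusted p under 0.05 there were 2130 probe sets, 1318 higher and 812 lower in 7B12. In simulated data this fit recovered 0 of 50 planted changes of 8-fold at the adjusted threshold. The simulation took each probe set's residual SD as its true SD and planted changes in few probe sets. Its recovery may therefore differ from that in the data. With so few degrees of freedom, the 0 calls of this fit cannot tell whether probe sets differed. When the 3 NT arrays were also fitted to estimate the spread, which leaves the difference itself as it is, 11 probe sets (0.0354%) passed, all of them higher in 7B12. Of these, 9 carry 1 gene symbol: Itgal, Naaa, Clec4a, Pilrb2l4, Siglec5, Tlr2, Rac2, Mrc1 and Cxcl13. Over genes, with the same arrays, 37 passed as higher (0.26%) and 2 as lower (0.0141%). These calls rest on every array: when any of the 9 arrays was left out, 0 of the probe sets and at most 1 gene, Itgal, passed. With the 3 11C7 arrays fitted as well, 0 of the probe sets passed (smallest adjusted p 0.494, and 2462 at an unadjusted p under 0.05). Genes that had passed with NT lost their calls there too. Over genes, the limma adjusted p with all 12 arrays was 0.377 for Saa3, Lcn2, Cxcl13 and Siglec5 and 0.382 for Mrc1. The fit over genes with NT and without 11C7 was added after the data were seen. It called 20 genes after quantile normalization and 115 with dim probe sets, defined below, left out. Where a gene is said below to pass with NT in the fit, this fit is meant.

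**Figure D1:**
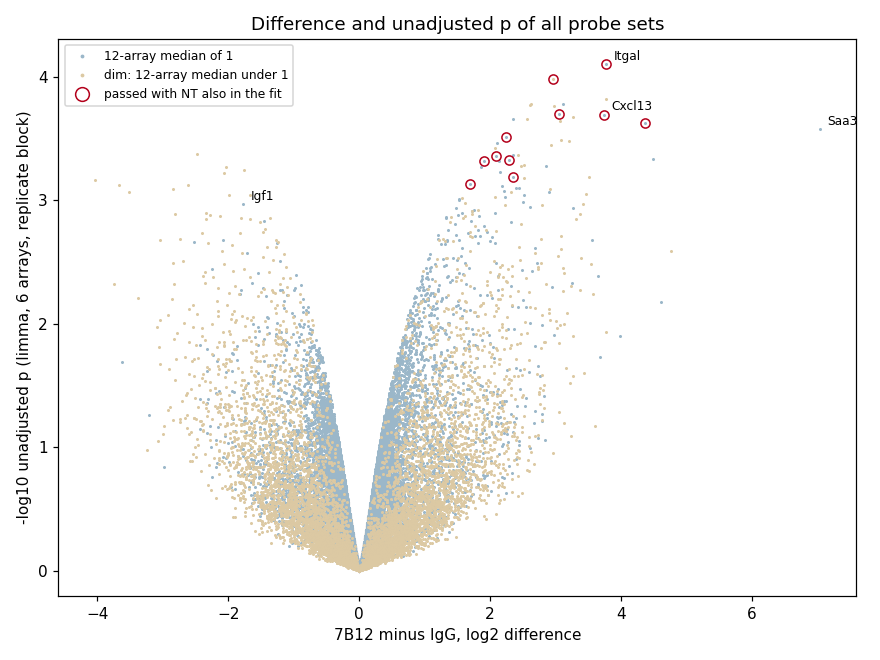
Each point is a probe set, with its 7B12 minus IgG difference (log2) on the horizontal axis and -log10 of its unadjusted limma p on the vertical axis; ringed points are the 11 that passed with NT in the fit, and sand-coloured points are dim probe sets. The ringed points all lie on the right, and Saa3 is the farthest to the right.

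Without a model, 933 probe sets (3.01%) had all 3 7B12 arrays above all 3 IgG arrays with at least 1.5-fold between the means, and 559 (1.8%) had them below. Of these, 62.5% were higher, and with the values as deposited, without centring, 821 were higher and 648 lower (55.9% higher). A difference of at least 4-fold was found for 255 of the higher and 118 of the lower. Of these separated probe sets, 374 of the higher and 304 of the lower were dim, a name used here for the 7319 probe sets (23.6%) whose median ratio over the 12 arrays was under 1 by more than a tolerance of 0.0015. The median SD within groups was 1.3 for dim probe sets and 0.376 for the others. Counted by gene, 448 (3.15%) were separated in this way as higher and 202 (1.42%) as lower, and the median over all 14217 genes was 0.01, with 7412 above 0 (-0.03 with the values as deposited). Lists of genes are set against these shares below; a list's members are described by how many were separated and by their median difference.

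Saa3, which encodes a serum amyloid A protein made by inflamed tissue, read 0.06, -2.17 and -0.92 on the IgG arrays and 6.52, 4.40 and 7.17 on the 7B12 arrays. The 7B12 arrays were far above every IgG array, although replicate 2 was the lowest of its group in both. The difference was 7.04 ± 0.41 (limma SE, adjusted p = 0.219, and 0.0245 with NT in the fit). Slpi, an inhibitor of leukocyte proteases, read 0.15, -0.73 and -0.04 in IgG and 3.99, 4.42 and 4.45 in 7B12, with the 7B12 arrays within a narrow range of each other. Its difference was 4.49 ± 0.31 (adjusted p = 0.229; 0.0828 with NT). Lcn2, a lipocalin that withholds iron from bacteria and is also made by reactive astrocytes, read -2.29, -2.37 and 0.06 in IgG and 1.78, 1.65 and 2.62 in 7B12. The IgG array of replicate 3 stood well above the other IgG arrays and still below each 7B12 array, and the difference was 3.55 ± 0.39 (adjusted p = 0.301; 0.0366 with NT). Of the 22 measured acute-phase and antimicrobial genes, 9 were separated as higher and 0 as lower, with a median difference of 0.81, and 5 passed with NT in the fit: Saa3, Lcn2, the lysozyme gene Lyz2 (1.33 ± 0.11), the metalloreductase gene Steap4 (1.44 ± 0.17) and the ferroxidase gene Cp (1.02 ± 0.12). The list's mean by pair was 1.35, 1.43 and 1.13, so that no pair carried it alone.

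**Figure D2:**
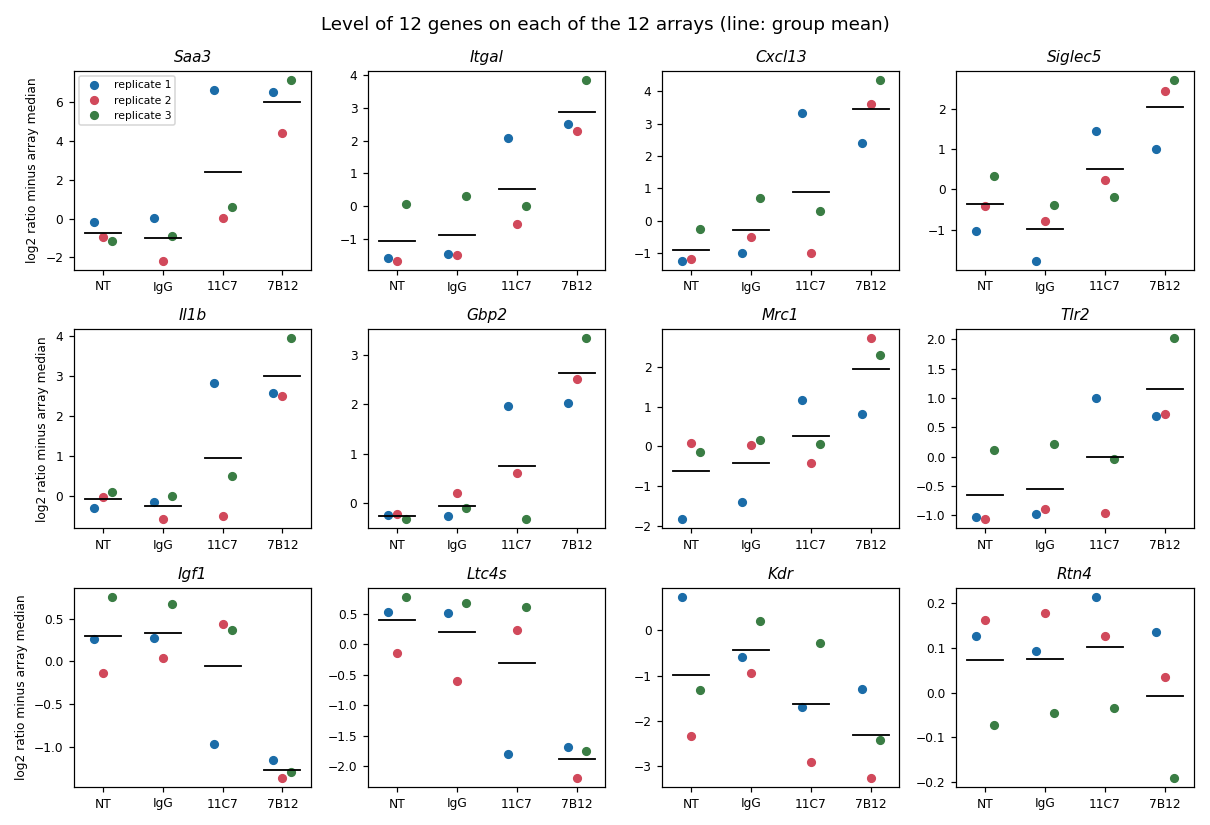
The log2 ratio less the array median is plotted for 12 genes on each of the 12 arrays, with colours for the replicate numbers and a line at each group mean. For Saa3 the 7B12 arrays lie between 4.40 and 7.17 and the IgG arrays between -2.17 and 0.06; the array 11C7 of replicate 1 lies near the 7B12 arrays for Saa3, Il1b and Tlr2, while Rtn4 differs little between groups.

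Promoter sequences of 4 of the higher genes are shown because they carry, or lack, short motifs of the factors that act on these genes in textbooks: kappaB sites of NF-kappaB (GGG, any 3 bases, TTCC), interferon response elements (GAAA, any 2 bases, GAAA) and STAT sites (TTC, any 3 bases, GAA), searched on both strands. The sequences are RefSeq's on the build GRCr8, each reaching from before the annotated start of the gene to 50 bases after it, 5′ to 3′ on the gene's strand, with matches in capitals. Cxcl10 lies on the plus strand at chr14:15988816-15989115, Gbp2 on the plus strand at chr2:234005477-234005776, Nfkbia on the minus strand at chr6:78597023-78597322 and Saa3 on the minus strand at chr1:106358381-106358680.
Cxcl10: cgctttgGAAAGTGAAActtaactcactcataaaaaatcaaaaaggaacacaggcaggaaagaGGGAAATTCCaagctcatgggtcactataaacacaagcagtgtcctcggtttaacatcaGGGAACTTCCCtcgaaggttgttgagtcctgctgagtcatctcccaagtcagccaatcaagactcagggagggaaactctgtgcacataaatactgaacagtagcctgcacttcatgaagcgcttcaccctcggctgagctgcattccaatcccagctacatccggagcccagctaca
Gbp2: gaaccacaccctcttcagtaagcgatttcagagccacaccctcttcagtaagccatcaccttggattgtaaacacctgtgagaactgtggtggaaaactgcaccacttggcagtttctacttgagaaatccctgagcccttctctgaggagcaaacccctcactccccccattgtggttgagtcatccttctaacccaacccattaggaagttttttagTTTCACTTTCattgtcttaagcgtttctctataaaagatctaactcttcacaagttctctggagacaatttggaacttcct
Nfkbia: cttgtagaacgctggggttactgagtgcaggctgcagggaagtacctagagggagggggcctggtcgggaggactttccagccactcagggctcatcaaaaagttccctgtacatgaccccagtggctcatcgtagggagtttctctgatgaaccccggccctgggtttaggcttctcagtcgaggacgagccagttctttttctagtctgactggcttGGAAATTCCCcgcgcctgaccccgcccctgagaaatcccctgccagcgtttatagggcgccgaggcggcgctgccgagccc
Saa3: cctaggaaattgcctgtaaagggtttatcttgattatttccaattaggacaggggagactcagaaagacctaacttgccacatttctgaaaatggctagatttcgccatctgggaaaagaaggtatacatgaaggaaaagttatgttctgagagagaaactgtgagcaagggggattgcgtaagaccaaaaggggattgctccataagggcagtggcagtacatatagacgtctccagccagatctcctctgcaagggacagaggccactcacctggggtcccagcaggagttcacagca
In Cxcl10 the interferon element begins 243 bases before the start, and kappaB matches begin 187, 128 and 127 bases before it, the latter pair being the same letters read on both strands with a shift of 1 base. Gbp2 has an interferon element 31 bases before the start and Nfkbia a kappaB match 31 bases before it, while the window of Saa3 holds none of these letters. Promoters were at hand for 360 of the 448 genes separated as higher, of which 10.3% held the interferon element, against 1.95% of 154 genes separated as lower and 2.99% of 11733 measured genes with a promoter. The kappaB letters were in 10%, 7.79% and 6.35%, and the STAT letters in 10.8%, 3.9% and 6.99%. Over all 27457 promoters of this length the shares were 3.77%, 5.36% and 8.68% for the interferon, kappaB and STAT letters. A match describes the letters only.

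Among chemokines, which guide migrating leukocytes, 9 of 28 measured genes were separated as higher and 0 as lower, and the median difference was 1.16. Cxcl13, which attracts B cells, read -1.02, -0.51 and 0.71 in IgG and 2.41, 3.62 and 4.35 in 7B12 and was higher by 3.74 ± 0.19 (adjusted p = 0.208; 0.0182 with NT). It was the only chemokine to pass with NT in the fit. The ligands of the receptor CXCR3 stood higher too, with Cxcl11 at 2.95 ± 0.43, Cxcl10 at 2.80 ± 0.52 and Cxcl9 at 2.53 ± 0.66, and adjusted p-values of 0.36, 0.42 and 0.512. Cxcl9 varied most of these: its 7B12 arrays read 1.49, 0.80 and 3.73 against -0.11, -0.96 and -0.51 in IgG. The monocyte attractant Ccl2 read -1.0, -1.29 and 0.15 in IgG and 0.07, 0.14 and 2.16 in 7B12, so that its groups overlapped although 7B12 was higher in every pair. The transmembrane chemokine Cxcl16 differed by 1.35 ± 0.18 (adjusted p = 0.338). The list's mean was smallest in pair 1, with 0.56, 1.14 and 1.48 in pairs 1, 2 and 3.

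Of 26 cytokine genes of the interleukin-1 and tumour necrosis factor families and related ones, 6 were separated as higher and 0 as lower, with a median of 0.50. Il1b, an early cytokine of activated microglia, read -0.16, -0.59 and -0.02 in IgG and 2.58, 2.49 and 3.94 in 7B12. This is a 9.58-fold difference (3.26 ± 0.30; adjusted p = 0.244, 0.0351 with NT). Tnf differed by 1.65 ± 0.30 and Il18 by 1.14 ± 0.19, and neither passed. Il10, a cytokine that restrains inflammation, was also higher, by 2.91 ± 0.23, with IgG arrays at -2.85, -3.83 and -3.27 and 7B12 arrays at -0.29, -1.09 and 0.17 (adjusted p = 0.233; 0.294 with NT). Il6 was separated too, with -0.11, 0.43 and -2.87 in IgG, of which the third is far from the others, and 0.84, 0.82 and 1.15 in 7B12, and its difference of 1.79 ± 0.87 had an adjusted p of 0.656. The receptor gene Tnfrsf1b stood higher by 1.82 ± 0.17 (adjusted p = 0.244).

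Genes that sense microbial and damage signals had 7 of 20 members separated as higher and 0 as lower, with a median of 0.55. Tlr2, the receptor for bacterial lipopeptides, read -0.98, -0.88 and 0.21 in IgG and 0.70, 0.72 and 2.02 in 7B12 (1.70 ± 0.12), and its partner Tlr1 read -0.83, -0.20 and 0.20 and 1.5, 1.94 and 3.03 (2.44 ± 0.19). Both passed with NT in the fit, with adjusted p-values of 0.0129 and 0.0197, as did the C-type lectin gene Clec4a3 (2.18 ± 0.17; 0.0197). Cd14, the co-receptor for endotoxin, was higher by 2.33 ± 0.38 (adjusted p = 0.384), whereas Tlr4, the endotoxin receptor itself, differed by 0.25 ± 0.13 with overlapping groups. Irak3, which dampens signalling from these receptors, stood higher by 1.35 ± 0.18, and Tlr8, a sensor of RNA, by 1.34 ± 0.14.

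NF-kappaB is the transcription factor these receptors activate, and many of its targets encode its own inhibitors. Of 20 measured subunits, inhibitors and direct targets, 10 were separated as higher and 0 as lower, with a median of 0.63. Sod2, the mitochondrial superoxide dismutase, read -0.30, -0.73 and 0.18 in IgG and 1.59, 1.53 and 2.68 in 7B12, a difference of 2.22 ± 0.18 that passed with NT in the fit (adjusted p = 0.0197). The inhibitors Nfkbia and Tnfaip3 stood higher by 0.79 ± 0.21 and 0.96 ± 0.17 and Tnip1 by 1.00 ± 0.15, each separated and none past the threshold. The adhesion genes Icam1 and Vcam1, both textbook targets, were higher by 1.00 ± 0.14 and 1.75 ± 0.25 (adjusted p = 0.349 and 0.36).

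Interferon-stimulated genes, which encode antiviral proteins, went the same way almost throughout: 46 of 48 measured genes were above 0 and 17 were separated as higher, with a median of 0.80. The list's mean was 0.80, 0.63 and 1.4 in pairs 1, 2 and 3, largest in pair 3. Gbp2, a guanylate-binding protein, read -0.27, 0.20 and -0.11 in IgG and 2.03, 2.52 and 3.34 in 7B12 (2.69 ± 0.31; adjusted p = 0.301, 0.0583 with NT). Irf7, the factor that amplifies interferon production, read -0.07, -0.29 and -0.32 and 2.63, 1.16 and 2.81 (2.43 ± 0.40; adjusted p = 0.386), and Isg15, a ubiquitin-like modifier, -0.66, -0.01 and -0.63 and 1.15, 1.29 and 3.02 (2.26 ± 0.55; adjusted p = 0.491). For Gbp2, Irf7 and Isg15 the 7B12 array of replicate 3 was the highest of its group. Only Lgals9, which encodes galectin-9, passed with NT in the fit (difference 1.48 ± 0.15; adjusted p = 0.0257). In RefSeq's promoters, 63.9% of 36 genes of this list held the interferon element.

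Genes that load peptides on MHC class I had 5 of 19 members separated as higher and a median of 0.50. The immunoproteasome subunit gene Psmb8 read -0.27, -1.10 and 0.56 in IgG and 0.82, -0.11 and 1.68 in 7B12, which overlap, but differed by nearly the same amount within each pair (1.07 ± 0.12) and passed with NT in the fit (adjusted p = 0.0238). Its partner Psmb9 differed by 1.18 ± 0.18, the peptide transporter Tap1 by 1.63 ± 0.31 and its docking protein gene Tapbp by 0.91 ± 0.16, without passing. Class II genes, which present peptides from outside the cell, had 0 of 13 separated and a median of 0.18: RT1-Da differed by 1.22 ± 0.29, the invariant chain gene Cd74 by 0.41 ± 0.18 and the protease gene Ctss by -0.13 ± 0.12.

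**Figure D3:**
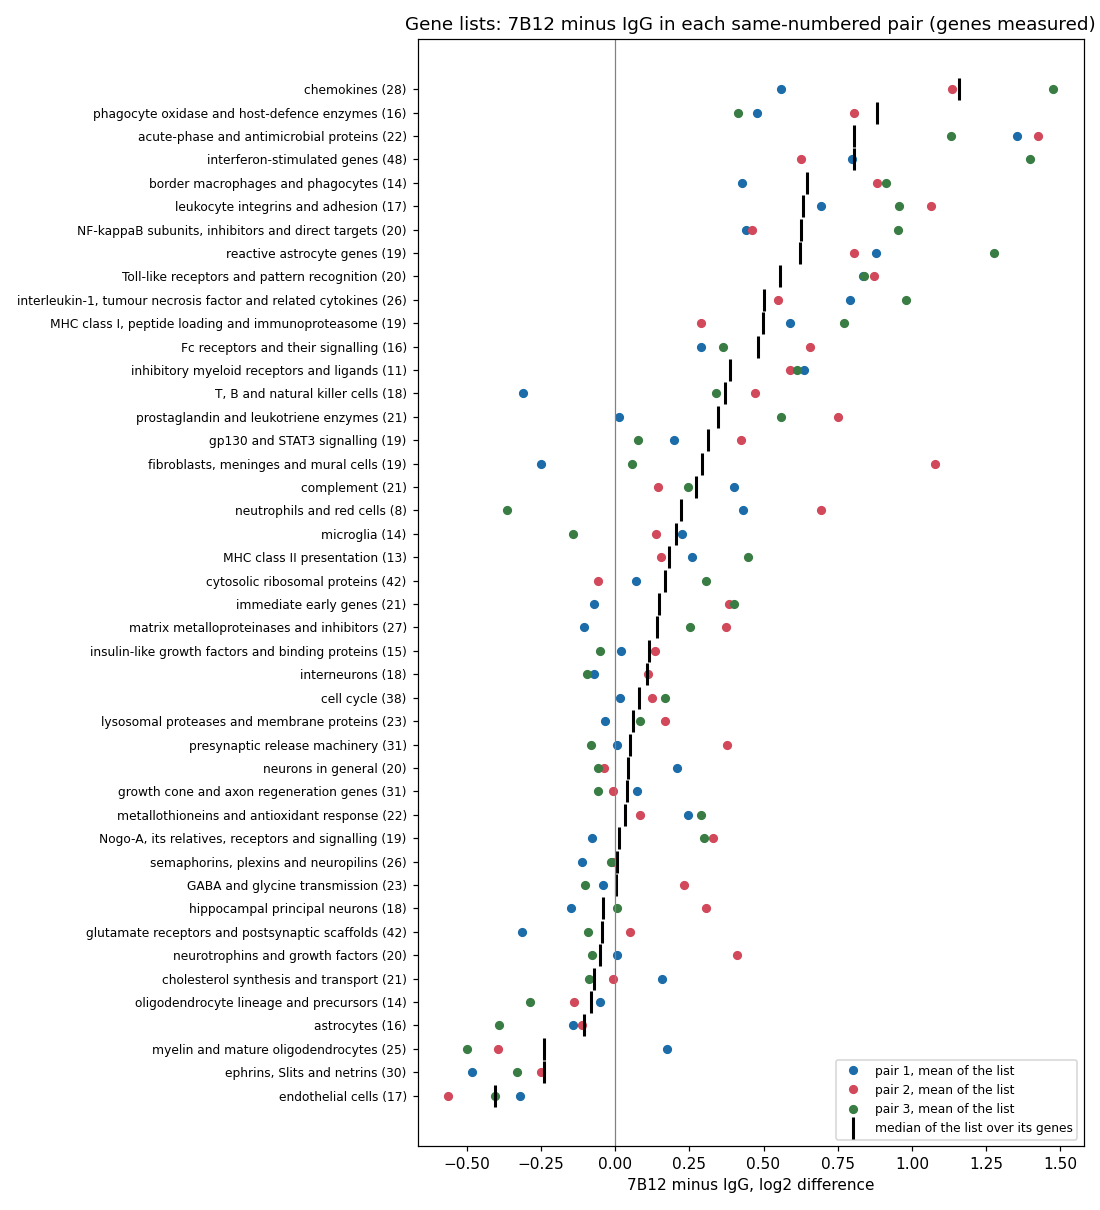
For each gene list (number of measured genes in brackets), coloured points give the mean 7B12 minus IgG difference (log2) within each same-numbered pair and the black mark the median over its genes. The chemokine list has the highest median (1.16) and the endothelial list the lowest (-0.40); the neuronal lists lie about 0.

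Fc receptors bind the constant part of IgG, and both groups had received an IgG. Of 16 genes for Fc receptors and their signalling, 3 were separated as higher and the median was 0.48. The shared signalling chain gene Fcer1g read -0.55, -0.81 and 0.12 in IgG and 0.54, 0.40 and 1.05 in 7B12 (1.08 ± 0.13) and passed with NT in the fit (adjusted p = 0.0351). The activating receptor gene Fcgr3a was higher by 1.61 ± 0.20 (adjusted p = 0.338; 0.0552 with NT), the kinase gene Lyn by 0.77 ± 0.13 and the high-affinity receptor gene Fcgr1a by 0.30 ± 0.13, while the inhibitory receptor gene Fcgr2b differed by -0.27 ± 0.22. Between IgG and NT cultures, the same list had a median difference of 0.07.

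Complement genes were mixed, with 5 of 21 separated as higher and 2 as lower. Higher were C3 (1.42 ± 0.19), the central protein of the cascade, its fragment's receptor gene C3ar1 (1.29 ± 0.15), the first-component proteases C1r (1.11 ± 0.18) and C1s (1.25 ± 0.19), and their inhibitor gene Serping1 (1.20 ± 0.19). C1qa, made by microglia, differed by -0.13 ± 0.12. Lower were the terminal component gene C6 (-1.58 ± 0.50) and C4bpa (-2.06 ± 1.03), whose adjusted p-values were 0.565 and 0.662; the IgG arrays of C4bpa read -2.84, 0.71 and -2.16, far apart from each other. None of the 21 passed with NT in the fit.

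Enzymes of phagocyte defence had 4 of 16 members separated as higher and 1 as lower, with a median of 0.88. Rac2, the haematopoietic GTPase of the NADPH oxidase, read -0.42, -1.0 and 0.06 in IgG and 1.46, 1.01 and 1.90 in 7B12 (1.91 ± 0.12; adjusted p = 0.0129 with NT). The oxidase subunit gene Ncf1 read -1.49, -1.09 and 0.17 and 1.42, 1.42 and 2.28 (2.51 ± 0.21; 0.0197 with NT), and Cybb, the catalytic subunit, was higher by 1.64 ± 0.34 (adjusted p = 0.44). Kmo, an enzyme of tryptophan breakdown, stood higher by 1.53 ± 0.12. Nos2, the inducible nitric oxide synthase, went the other way, with IgG arrays at 1.05, 0.11 and 0.20 and 7B12 arrays at -1.53, 0.10 and -0.59, and a difference of -1.13 ± 0.59 that did not pass (adjusted p = 0.669).

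Of 21 prostaglandin and leukotriene enzymes, which make lipid mediators of inflammation, 3 were separated as higher and 1 as lower. Their median of 0.35 became 0.55 without replicate 1 and 0.17 without replicate 2, and the means by pair were 0.01, 0.75 and 0.56. Hpgds, the haematopoietic prostaglandin D synthase, read -1.70, -1.70 and 0.07 in IgG and 1.56, 1.06 and 2.61 in 7B12, a difference of 2.85 ± 0.20 that passed with NT in the fit (adjusted p = 0.0197). Ltc4s, which makes leukotriene C4, read 0.51, -0.60 and 0.69 and -1.68, -2.19 and -1.76, so that all 7B12 arrays were below all IgG arrays. Its difference of -2.08 ± 0.22, or 4.22-fold lower, passed with NT in the fit (adjusted p = 0.0319). Ptges, the inducible prostaglandin E synthase, stood higher by 2.62 ± 0.59 (adjusted p = 0.47), while Ptgs2, the inducible cyclooxygenase, differed by 0.53 ± 0.31 with overlapping groups. The other gene to pass as lower with NT in the fit was Rasgrp3, an activator of Ras proteins, with IgG arrays at 0.12, 0.28 and 1.25, 7B12 arrays at -1.22, -1.46 and -0.83 and a difference of -1.72 (adjusted p = 0.0424).

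Itgal, the alpha chain of the leukocyte integrin LFA-1, read -1.45, -1.51 and 0.29 on the IgG arrays and 2.49, 2.29 and 3.86 on the 7B12 arrays. The 3 pairs differed by 3.95, 3.81 and 3.57, close to each other although the level of replicate 3 was higher in both groups. With NT in the fit its adjusted p of 0.00211 was the smallest of all genes, and it alone still passed in 6 of the 9 fits that left out an array, with an adjusted p of at most 0.0708 over all of them. Itgax, the alpha chain of the integrin CD11c, also passed (2.32 ± 0.23; 0.0334). Of 17 leukocyte integrin and adhesion genes, 6 were separated as higher, 0 as lower, with a median of 0.63. Among inhibitory myeloid receptors and related genes, Siglec5, a sialic acid-binding receptor, read -1.77, -0.79 and -0.40 in IgG and 1.01, 2.44 and 2.72 in 7B12 (3.05 ± 0.15; 0.0129 with NT), and Slamf9 stood higher by 2.90 ± 0.24 (0.0197 with NT). Cd200r1l went the other way, at -2.15 ± 0.61 (adjusted p = 0.528).

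Markers of brain macrophages differed from marker to marker. Of 14 measured markers of border macrophages and phagocytes, 6 were separated as higher and 1 as lower, with a median of 0.65 that became 1.14 without replicate 1 and 0.40 without replicate 2. Mrc1, the mannose receptor, read -1.41, 0.02 and 0.14 in IgG and 0.80, 2.72 and 2.30 in 7B12 (2.35 ± 0.17; 0.0137 with NT), and the folate receptor gene Folr2 -0.99, -0.19 and 0.33 and 1.49, 1.51 and 2.16 (2.00 ± 0.22; 0.0334 with NT). Ms4a7 stood higher by 2.61 ± 0.23 (0.0509 with NT), whereas the scavenger receptor gene Cd163 was lower by its difference of -0.81 ± 0.19 (adjusted p = 0.489). The NT arrays of Cd163 read -0.05, -2.79 and 0.25, which overlapped with the 7B12 arrays. The list's mean was -0.53, -0.63 and -0.35 on the IgG arrays and -0.10, 0.25 and 0.56 on the 7B12 arrays. Of the 14 measured microglial markers, 8 were above 0, 0 were separated as higher and 1 as lower, with a median of 0.20. Tmem119 stood higher by 0.99 ± 0.15 and Itgam by 0.75 ± 0.16, Cx3cr1 differed by 0.47 ± 0.16 and Csf1r by 0.24 ± 0.19, and Trem2, P2ry12 and Sall1 had differences of -0.62 ± 0.21, -0.59 ± 0.18 and -0.65 ± 0.14. Their adjusted p-values lay between 0.368 and 0.767, and the microglial list's mean, -0.09, -0.30 and 0.56 in IgG and 0.13, -0.16 and 0.42 in 7B12, varied more among replicate numbers than between the groups. Lysosomal proteases and membrane proteins had 0 of 23 separated and a median of 0.06. How far a shift in macrophage number has a part in the immune genes above was not tested.

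Markers of blood leukocytes were given as a check on other cells. Of 18 markers of T, B and natural killer cells 1 was separated as higher, the B cell receptor chain gene Cd79b (2.49 ± 0.33, adjusted p = 0.338). Of the 18, 12 were above 0 and 6 below, and the list's mean was -0.31, 0.47 and 0.34 in pairs 1, 2 and 3, so that pair 1 went the other way. The T cell genes Cd3e and Cd3d differed by 0.41 ± 0.23 and 0.81 ± 0.21, the B cell gene Ms4a1 by -1.52 ± 1.51 and the natural killer cell gene Klrd1 by -2.52 ± 0.87. The list's mean ranged from -1.17 to -0.80 in IgG and from -1.31 to -0.46 in 7B12. Of 8 measured neutrophil and red cell markers 0 were separated, with a median of 0.22, 5 above 0 and 3 below. The neutrophil gene S100a8 differed by 1.24 ± 0.33 (adjusted p = 0.517), its partner S100a9 by -0.18 ± 1.11, the chemokine receptor gene Cxcr2 by -0.90 ± 0.66 and the collagenase gene Mmp8 by -0.64 ± 0.60. Since ratios have no zero, whether a marker was absent cannot be read from them, and the part of such cells in the results was not tested.

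The lists of reactive astrocyte genes and of astrocyte markers went different ways. In RNA of whole slices, which cells made these transcripts was not tested. Of 19 reactive astrocyte genes 18 were above 0 and 8 were separated as higher, with a median of 0.62 (0.98 without replicate 2); this list shares Lcn2, Gbp2, Psmb8, Steap4, Cp and others with the lists above. Serpina3n, a protease inhibitor gene, read -0.31, -0.53 and -0.21 in IgG and 1.10, 0.50 and 1.51 in 7B12 (1.38 ± 0.19; adjusted p = 0.349, 0.0983 with NT), and Timp1, an inhibitor of matrix proteases, 0.11, -0.84 and -0.27 and 1.24, 0.95 and 1.58 (1.59 ± 0.21; 0.338, 0.0828 with NT). The intermediate filament genes differed little, Gfap by 0.11 ± 0.12 and Vim by 0.16 ± 0.12. Of 16 astrocyte markers 13 were below 0, with a median of -0.10; the water channel gene Aqp4 differed by 0.03 ± 0.13, and Agt, which encodes angiotensinogen, was the only marker separated, with 0.01, 0.23 and 0.05 in IgG and -0.51, -0.50 and -0.96 in 7B12 (-0.75 ± 0.16; adjusted p = 0.44). Of the 27 matrix proteases and inhibitors, 16 were above 0 and 11 below, 3 were separated as higher and 0 as lower, and the median of 0.14 became -0.03 with NT in place of IgG. The stromelysin gene Mmp3 stood higher by 2.51 ± 0.39 (adjusted p = 0.374) and the collagenase gene Mmp13 by 2.10 ± 0.60. For Mmp13 the IgG arrays read -3.52, -3.10 and -3.76 and the NT arrays -0.51, 0.11 and 0.10. Its NT mean of -0.10 was above its 7B12 mean of -1.36. Lower in all 3 pairs, with overlapping groups, were the plasminogen activator gene Plau (-1.13 ± 0.20), the inhibitor gene Timp4 (-1.10 ± 0.22) and Mmp10 (-1.58 ± 0.35).

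Of 17 endothelial markers 11 were below 0 and 6 above, and 3 were separated as lower and 0 as higher. The median of -0.40 was the lowest of all lists, and it was -0.25 without replicate 3 and -0.24 with NT in place of IgG. The list's mean by pair was -0.32, -0.56 and -0.40. Kdr, the main receptor for VEGF, read -0.59, -0.94 and 0.20 in IgG and -1.28, -3.25 and -2.42 in 7B12 (-1.87 ± 0.47; adjusted p = 0.5), Mmrn2 -0.16, 0.94 and -0.04 and -2.74, -2.17 and -1.04 (-2.23 ± 0.50; 0.466) and the thyroid hormone transporter gene Slco1c1 0.34, 0.35 and 0.09 and -0.25, -0.44 and -0.82 (-0.76 ± 0.13; 0.401). Pecam1 (0.18 ± 0.15) and Eng (0.69 ± 0.18) did not share this direction, and no member passed with or without NT in the fit. In NT cultures Kdr read 0.73, -2.34 and -1.32, which overlapped with the 7B12 arrays.

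Igf1, a growth factor that microglia and neurons make, read 0.49, -0.05 and 0.49 in IgG and -1.18, -1.67 and -1.53 in 7B12 by the probe set with the smallest p. All 7B12 arrays were below all IgG arrays. That probe set differed by -1.77 ± 0.17 (adjusted p = 0.463 over probe sets), and the mean of the gene's 3 probe sets by -1.59 ± 0.18 (adjusted p = 0.301; 0.0592 with NT). Its binding protein gene Igfbp3 stood higher by 0.69 ± 0.20 and Irs1, an adaptor of its receptor, was lower at -0.81 ± 0.30. The NT arrays of Irs1 read 0.76, -1.15 and -0.87, which overlapped with the 7B12 arrays. Nrp1, a receptor for semaphorins and VEGF, was the only separated gene of 26 semaphorins, plexins and neuropilins, with 0.15, 0.24 and 0.43 in IgG and -0.83, -0.42 and -0.48 in 7B12 (-0.85 ± 0.13; adjusted p = 0.374, 0.0828 with NT).

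The list of Nogo-A, its relatives, receptors and signalling had a median of 0.01, while single receptor genes differed in either direction. Rtn4, measured by 2 probe sets whose share of Nogo-A among the products of the gene was not examined here, read 0.09, 0.18 and -0.05 in IgG and 0.14, 0.04 and -0.19 in 7B12, and its difference of -0.08 ± 0.12 had an adjusted p of 0.872. Of 19 measured genes of the list 10 were above 0 and 0 were separated. Among the receptors, Rtn4r differed by -0.49 ± 0.40, its co-receptor Lingo1 by -0.06 ± 0.17, the co-receptor Tnfrsf19 by 0.13 ± 0.22 and S1pr2, a receptor for the central region of Nogo-A, by 0.50 ± 0.16. The neurotrophin receptor gene Ngfr, a further co-receptor, read -0.77, -2.66 and -0.13 in IgG and -0.66, 0.15 and 0.97 in 7B12, with replicate 2 of IgG far below the others (1.34 ± 0.61; adjusted p = 0.649). The relative Rtn4rl2 had the smallest p of the list, at 0.87 ± 0.16 (adjusted p = 0.42), and its level varied more among replicate numbers (-2.25, 0.87 and -0.73 in IgG) than between the groups. The other myelin inhibitors Mag and Omg differed by -0.03 ± 0.17 and -0.41 ± 0.15, and the downstream genes Rhoa and Rock2 by 0.10 ± 0.13 and 0.05 ± 0.12.

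Of 31 growth cone and regeneration genes 0 were separated, with a median of 0.04; Gap43, the classical growth cone gene, read -1.04, -0.91 and -0.19 in IgG and -0.75, -1.40 and -1.11 in 7B12 (-0.37 ± 0.29; adjusted p = 0.765). The membrane-associated Marcks stood higher by 0.66 ± 0.17 and Basp1, of similar function, lower at -0.44 ± 0.13, and Dcx, a marker of young neurons, at -0.85 ± 0.22. Ephrins, Slits and netrins had 22 of 30 members below 0 and a median of -0.24, with pair means of -0.48, -0.25 and -0.33; 1 member, Efnb1, was separated, as higher (0.59 ± 0.13).

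Neuronal and synaptic genes differed far more among replicate numbers than between treatments. The mean of 20 general neuronal markers was -0.99, 0.93 and -0.08 on the IgG arrays and -0.78, 0.89 and -0.14 on the 7B12 arrays, low in replicate 1 and high in replicate 2 of both. Snap25, a synaptic membrane protein gene, read -2.01, 1.44 and -0.14 and -1.91, 1.34 and 0.04, and the difference within pairs was only 0.06 ± 0.13. The vesicular glutamate transporter gene Slc17a7 differed by 0.45 ± 0.18, the GABA enzyme gene Gad1 by 0.53 ± 0.14 and the neuronal nuclear marker Rbfox3 by 0.05 ± 0.19. Medians were 0.04 for general neurons, -0.04 for principal neurons, 0.11 for interneurons, 0.05 for the release machinery and -0.04 for glutamate receptors and scaffolds. Over these 5 lists, separated members were the glutamate receptor gene Grm2 (-1.72 ± 0.49) and the interneuron factor gene Dlx5 (-1.80 ± 0.16), both lower and neither past the threshold. Immediate early genes, which follow neuronal activity, had 0 of 21 separated and a median of 0.15 (0.39 without replicate 1).

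Myelin genes leaned lower without separation. Of the 25 genes in the myelin and oligodendrocyte list 21 were below 0, with a median of -0.24 (-0.45 without replicate 1, -0.13 without replicate 2). Pair 1 went the other way on average (0.17, -0.40 and -0.50). The 25 include Trh, a hormone gene that is not of myelin and was matched by synonym to the listed Trf. Trh was above 0 (0.47 ± 0.18), and the median and means were taken with it. Mbp differed by 0.01 ± 0.20, Mog by -0.24 ± 0.21 and Mobp by -0.53 ± 0.20, and Ugt8, an enzyme of myelin lipids, by -0.73 ± 0.14 (adjusted p = 0.422). Precursor genes had a median of -0.08 and 0 of 14 separated.

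Genes outside the lists that passed with NT in the fit included the lectin genes Clec4a (difference 2.08) and Clec4a1 (2.16) and the cytokine subunit gene Ebi3 (2.23), all higher. By the rule for named genes, the 15 higher and 15 lower probe sets with the smallest unadjusted p were also inspected, none of which passed over 6 arrays. Of the higher 15, 8 were not dim: Itgal, Siglec5, Cxcl13, Saa3, Naaa, Cst7, Tnfrsf14 and Septin6. Naaa, an acid amidase of lysosomes, read -0.38, -0.81 and 0.08 in IgG and 1.87, 1.53 and 2.20 in 7B12 (2.24 ± 0.14; adjusted p = 0.0129 over genes with NT). Cst7, cystatin F of activated microglia, read -0.41, -1.53 and -0.16 and 2.46, 1.70 and 3.07 (3.11 ± 0.16), and Tnfrsf14, a receptor of the tumour necrosis factor family, -0.54, -0.75 and -0.40 and 1.85, 1.62 and 1.89 (2.35 ± 0.13). The dim higher probe sets were those of Osr2, Asgr1, Tmbim7, Col7a1, Akr1c14, P2rx2 and Cnga1, with differences of 2.43 to 3.27. IgG was below NT on average for each of these dim higher probe sets, with IgG minus NT from -0.25 (Osr2) to -2.70 (Cnga1). For Cnga1 the NT mean of -0.29 was above the 7B12 mean of -0.56. Of the lower 15, only Igf1 was not dim. The dim lower probe sets, among them those of Tmem131 (-4.04 ± 0.33), Sult1c2a (-3.68 ± 0.31), A2ml1 (-2.47 ± 0.17) and Zap70 (-1.75 ± 0.13), had no adjusted p under 0.178 with NT in the fit. For Zap70 the mean was 0.28 in IgG, -1.47 in 7B12 and -1.45 in NT, so that 7B12 stood at the untreated level. In the same order the means were -0.42, -2.77 and -2.94 for Fabp9 and 0.16, -2.11 and -2.05 for Mroh4. IgG minus NT was 1.09 ± 0.77 for Tmem131, 1.48 ± 0.76 for Sult1c2a and 1.60 ± 0.85 for A2ml1. Among the dim lower probe sets only that of Pla2g4b had IgG below NT (-0.47 ± 0.82).

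The same genes were set beside the other Nogo-A antibody and the untreated cultures. Both comparisons with IgG share the IgG arrays, so their values are given side by side only. For Saa3 the NT arrays read -0.15, -0.95 and -1.16 and the 11C7 arrays 6.62, 0.02 and 0.61; for Itgal they read -1.60, -1.68 and 0.07 and 2.09, -0.54 and 0.01, and for Il1b -0.31, -0.04 and 0.09 and 2.82, -0.51 and 0.50. The 11C7 array of replicate 1 thus lay with the 7B12 arrays and the other 11C7 arrays did not. Over the 37 genes that passed as higher with NT in the fit, that array was above every IgG array for 36, while replicates 2 and 3 of 11C7 were both below the lowest 7B12 array for 35. All 7B12 arrays were above all NT arrays for 34 of the 37. These 37 were chosen for high 7B12 arrays with NT in the fit, so the counts of 35 and 34 partly follow from that choice. Shares over all genes were not counted. The median of the chemokine list was 1.16 for 7B12 minus IgG, 0.39 for 11C7 minus IgG and 0.05 for IgG minus NT. For interferon-stimulated genes these were 0.80, 0.27 and 0.02, and for endothelial markers -0.40, -0.19 and -0.03.

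**Figure D4:**
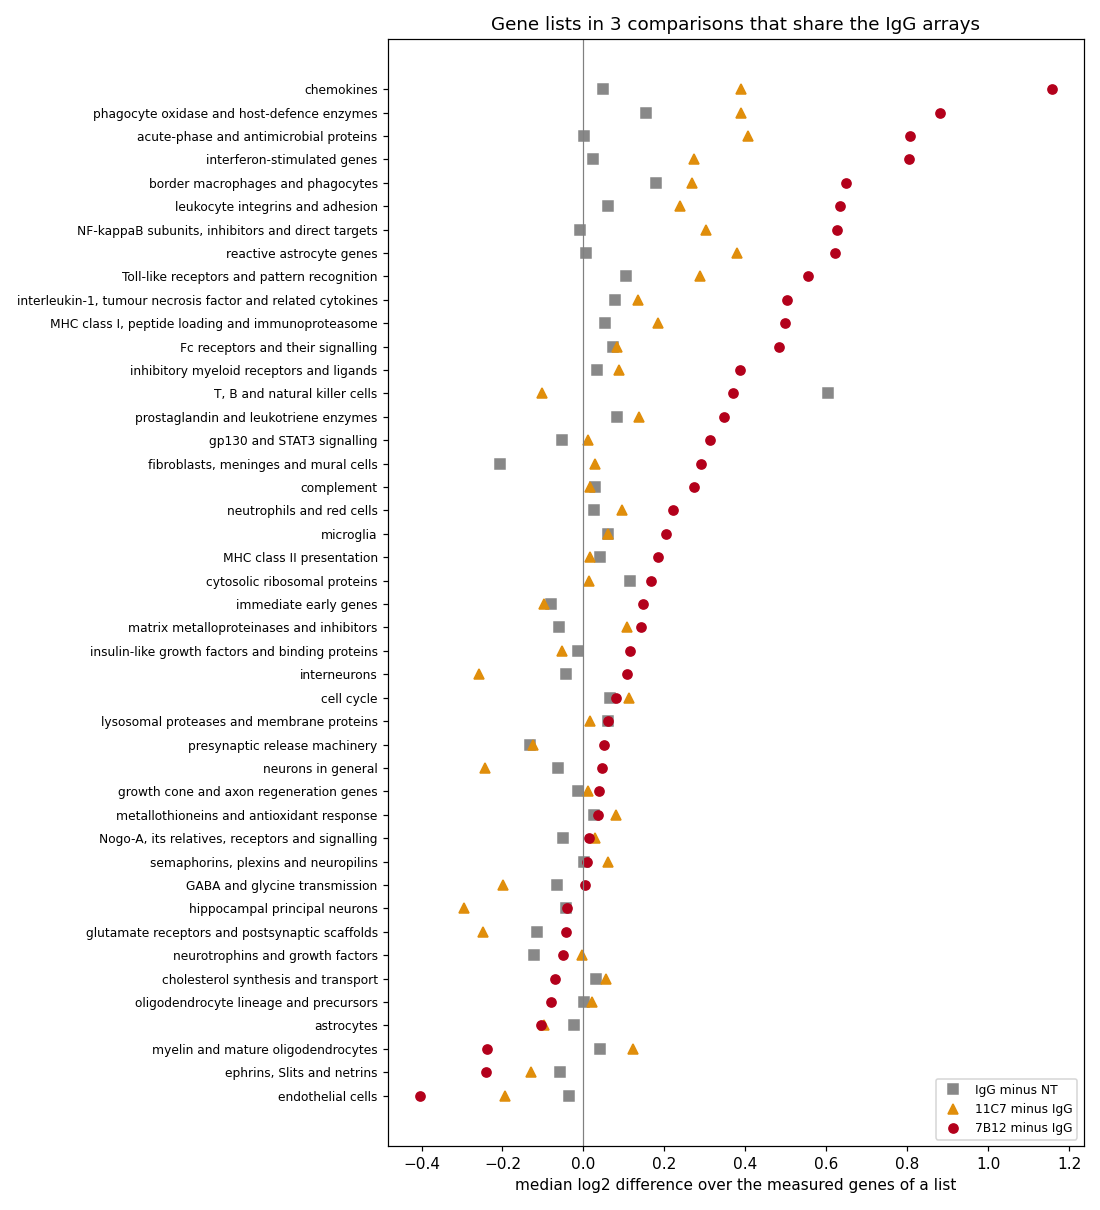
For each gene list, the median log2 difference over its measured genes is given for 7B12 minus IgG (circles), 11C7 minus IgG (triangles) and IgG minus NT (squares); the first and second share the IgG arrays, and the third uses them with the opposite sign. For the chemokine list the values are 1.16, 0.39 and 0.05.

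The direct test of 7B12 against 11C7 at the same dose and time, over all 12 arrays with the replicate block, called 0 of 31042 probe sets (0%) in limma, with a smallest adjusted p of 0.487 and 2185 at an unadjusted p under 0.05, 1237 of them higher in 7B12. Over genes Itgal differed by 2.36 ± 0.69, Saa3 by 3.61 ± 1.21 and Ltc4s by -1.57 ± 0.57, each with an adjusted p of 0.596. Each of the 12 arrays was left out in turn, after the data were seen. Without replicate 1 of 11C7, 27 probe sets passed, 24 of them higher in 7B12 and among them those of Cxcl13, Tlr1, Tlr2, Mrc1, Itgal and Hpgds, with Ltc4s among the 3 that were lower. Without replicate 3 of 11C7 1 passed, and without any other array 0 did. The count of this comparison thus turned on a single array, for which the labels give no difference from the others of its group.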

How the data were processed

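RNA was hybridised to Affymetrix rat arrays. The authors deposited 1 ratio for each probe set and array. GCOS 1.4 and MAS5 are named in the submitters' processing notes. The design text states scaling by chip and by gene to a control median. Over the 12 arrays, 23.6% of probe sets had a median ratio under 1 by more than a tolerance of 0.0015. Which reference the ratios used was not settled here. A constant reference leaves log2 differences as they are. Ratios carry no intensity, depth or detection call, so precision is judged only from the number of arrays and the spread among them.

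Of 31099 probe sets 57 spike-in controls were left out. Of the rest 20826 carried 1 symbol, 436 several and 9780 none here, by the platform's annotation. Symbols were checked against RefSeq through Entrez identifiers, which changed 0 of them. From log2 ratios less the array median, lmFit and eBayes of limma 3.58.1 under R 4.3.3 gave two-sided tests without a trend, with Benjamini-Hochberg adjustment over all probe sets or genes and a threshold of 0.05. The code was checked on simulated data, with 50 probe sets changed at each of 8, 4, 2 and 1.5-fold. The fit of 6 arrays recovered 0 at each fold. The fit with NT recovered 43, 28, 9 and 0, with 8 false calls. The fit of 12 arrays for 7B12 against 11C7 recovered 45, 37, 19 and 0, with 6 false calls. Groups and numbers came from titles, and the labels state triplicates with separate cultures from different animals. The block follows the pairing of arrays by replicate number. Deviations from group means of same-numbered IgG and 7B12 arrays correlated at 0.299, 0.195 and 0.12 across probe sets. Those of different-numbered IgG and 7B12 arrays correlated at -0.206 to 0.01.

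Named genes were the 15 highest and 15 lowest among passing probe sets, filled by the smallest unadjusted p with at least 1.2-fold, 3 pairs alike and no overlap, beside Rtn4, the Nogo receptor genes and, from each list, at most 5 members ranked by p; other members named, and genes passing with NT in the fit, were chosen after their values were seen. The comparison and the lists were chosen with earlier results of these data known. Of 1107 list entries 963 were matched by symbol and 5 by synonym. The synonym match brought Trh, which is not a myelin gene, into the myelin list in place of Trf. Alternatives were other centrings, filters, fits and arrays left out.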

Additional observations from a re-analysis of the deposited data

How the results depend on the processing

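The count of probe sets past the threshold for 7B12 against IgG was 0 over 6 arrays with the replicate block and also 0 with no replicate block (1255 at an unadjusted p under 0.05), over 12 arrays with or without array weights, with the deposited values, quantile normalization, a floor, dim probe sets left out or a robust fit, and without any replicate number (0 to 0); it was 11 over 9 arrays with NT and the replicate block. The fit of 6 arrays has 2 residual degrees of freedom and called nothing in any of these settings. In simulated data it also recovered 0 of 50 planted changes of 8-fold. Its counts of 0 therefore say nothing about stability. Leaving out each of the 9 arrays of the fit with NT gave 0 to 0. Over genes the count with NT was 39 in the main setting, 35 with deposited values, 20 after quantile normalization, 115 with dim probe sets left out, and 0 to 1 without each array. For 7B12 against 11C7 the count was 0 in the main setting, with no replicate block, after quantile normalization and with dim probe sets left out, and 0 to 27 without an array or a replicate number, the 27 being without replicate 1 of 11C7. Separated probe sets numbered 1492 in the main setting, 814 with dim probe sets left out, where fewer were counted, 1048 at 2-fold and 3944 to 5132 without a replicate number, where 2 arrays a group have to separate. Of the list medians recomputed under 8 alternatives, 321 moved by less than the SD of the 3 pairs and 31 by more. That SD is of the list's means by pair, not of its median. Alternatives that left out a replicate number also reuse the remaining pairs. These counts are therefore not a measure of stability. The medians of the chemokine, interferon, acute-phase, endothelial and myelin lists kept their sign in all 8 alternatives. The directions of the 30 named probe sets were fixed by the choice of members, and are given no weight here. The ratios give no signal over background, so which probe sets were too weak to measure is unknown.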

Other observations

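Some lists that had no place above gave small values. Cell cycle genes had 1 of 38 members separated, the thymidylate synthase gene Tyms (0.72 ± 0.13), and a median of 0.08. Cholesterol genes had 0 of 21 separated and a median of -0.07, although the regulator gene Srebf2 differed by 1.00 ± 0.12 (adjusted p = 0.338; 0.552 with NT in the fit), with overlapping groups. Metallothioneins and antioxidant genes had a median of 0.04 and 2 of 22 separated, Sod2 and the peroxiredoxin gene Prdx5 (0.92 ± 0.23). Ribosomal protein genes had 38 of 42 above 0 with a median of 0.17 (0.08 without replicate 3), means by pair of 0.07, -0.06 and 0.31, and 0 separated. Genes of gp130 and STAT3 signalling, which several acute-phase genes follow in textbooks, had 0 of 19 separated as higher and 1 as lower, the inhibitor gene Cish (-0.76 ± 0.20), with a median of 0.31. The neurotrophin and growth factor list had a median of -0.05 and 1 of 20 separated, Ntf4 (-0.93 ± 0.31). Inhibitory transmission had 1 of 23, the glycine receptor gene Glrb (1.37 ± 0.23), as higher. Fibroblast, meningeal and mural markers had 0 of 19 separated, and their means by pair, -0.25, 1.08 and 0.06, show that pair 2 carried the list; Col3a1 read 0.25, -0.37 and -2.07 in IgG and 0.73, 2.81 and -0.08 in 7B12.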
